A study of Mus musculus with 10 samples.

Results

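Prl2c2, Prl2c3, Prl2c5 and Prl8a9 are genes of the mouse prolactin family that are known mainly from the placenta, and here they were followed in mammary fibroblasts and mammary tumor cells cultured without any placental tissue. They were taken from the gene count table by symbol and are 4 of its 55486 genes and 4 of its 26 rows of the prolactin family. They had been chosen by their counts in these same libraries, so their levels and ratios are given as a description and carry no p-value.

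The study asked how normal fibroblasts (NFs) of the mammary gland with and without the surface protein CD26 respond to tumor cells of invasive lobular carcinoma. CD26- and CD26+ NFs came from female mTmG reporter mice at 8 weeks (FVB/n background), whose cells carry a red membrane protein until Cre recombinase switches them to green. After a week in flat culture, only the CD26+ NFs received an adenovirus carrying Cre, so the subset and the virus cannot be told apart, and equal numbers of both subsets went into a gel. Tumor cells came from WapCre mice with floxed Cdh1, in which Cre is driven by a milk protein promoter in mammary epithelium, as the lines 13-MCB-17 and 10-SJK-221. The gels, made of collagen and BME (basement membrane extract), were dissolved after 7 days, and flow sorting parted red, green and colorless cells. Gel 1 held both NF subsets without tumor cells and gave 1 library of CD26- NFs and 1 of CD26+ NFs. Gels 2 and 3 held tumor cells without NFs (13-MCB-17 and 10-SJK-221) and gave 2 libraries. Gels 4 and 5 held both NF subsets with tumor cells of line 13-MCB-17 and of line 10-SJK-221, and gave 2 libraries of tumor cells and 2 of each NF subset. The methods state that mice were pooled for a sort, and no label ties gels to separate animals, so the spread between gels may be technical.

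The 10 libraries held 14142334 to 18408940 counts, and a count of 0 allowed up to 3 counts, or 0.163 to 0.212 CPM (counts per 1000000 counts of the library). Summed fibroblast markers (8 genes) were at 23317 to 74846 CPM in NF libraries and at 38.7 to 177 CPM in tumor libraries, and summed epithelial markers (10 genes) were at 4361 to 5745 CPM in tumor libraries. NFs from gels with tumor cells held 121 to 329 CPM of these epithelial markers, against 0.807 and 1.12 CPM in NFs alone. Dpp4, which encodes CD26, counted in gels 1, 4 and 5, had 4, 12 and 4 reads in CD26+ NFs but 0, 0 and 1 in CD26- NFs. Cdh1 was at 139.9 to 269 CPM in tumor cells and 0 in NFs alone, but a count over the whole gene does not reveal reads from the floxed exons and is no check of the deletion.

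In mice and rats the prolactin gene has been duplicated many times, and most copies encode hormones that trophoblast cells of the placenta secrete. The Prl2c genes encode the proliferins, or mitogen-regulated proteins, which were first found in growth-stimulated fibroblast lines and are made in bulk by trophoblast giant cells. Proliferins promote the growth of blood vessels and bind the receptor for insulin-like growth factor 2 and mannose 6-phosphate, the product of Igf2r. Prl8a9 encodes a prolactin-like protein of the placenta. Prolactin itself signals through its receptor Prlr, the kinase Jak2 and the transcription factors Stat5a and Stat5b.

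All 4 genes lie on chromosome 13 (GRCm38). Prl2c3 (ENSMUSG00000056457) lies at 12790816 to 12800079 and Prl2c2 (ENSMUSG00000079092) at 12996125 to 13005383, both on the minus strand. Prl2c5 (ENSMUSG00000055360) lies at 13182715 to 13191923 on the plus strand. Prl8a9 (ENSMUSG00000006490) lies at 27557995 to 27564606 on the minus strand, among the other family genes. In the GENCODE M21 annotation the Prl2c genes have 5 exons and Prl8a9 has 6.

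How far counts can be assigned to one Prl2c gene depends on how alike the transcripts are. The coding sequences of Prl2c2 and Prl2c3 were identical at 669 of 672 positions (99.6%), those of Prl2c2 and Prl2c5 at 96.1% and those of Prl2c3 and Prl2c5 at 96.0% of aligned positions. Prl8a9 shared 54.2% to 55.1% of aligned coding positions with the other genes. The shortest reads named in the labels have 54 bases. Of the 54-base windows of the Prl2c2 transcript, 88.1% occurred letter for letter in a transcript of another gene, as did 77.0% of those of Prl2c3, 35.4% of those of Prl2c5 and 0% of those of Prl8a9. A single read of Prl2c2 thus matched no other gene of the annotation in 94 of 789 windows, and one of Prl2c5 in 511 of 791. The mate of a read, where pairs were read, can add information, and how the counting treated reads with several matches is not given in the sources used here. Counts of Prl2c2 and Prl2c3 are therefore uncertain as to which gene they belong to, those of Prl2c5 less so, and Prl8a9 shares no window with another gene.

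The following coding windows of 54 bases in exon 2 show what a read had to resolve, with capitals at the 4 positions at which the 3 Prl2c genes differ. Prl2c2 and Prl2c3 had the same letters at all of them, and Prl2c5 stood apart.
Prl2c2, chr13:13002213-13002266, minus strand: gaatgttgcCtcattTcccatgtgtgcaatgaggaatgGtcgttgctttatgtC
Prl2c3, chr13:12796910-12796963, minus strand: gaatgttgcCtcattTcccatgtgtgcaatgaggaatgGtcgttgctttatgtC
Prl2c5, chr13:13185833-13185886, plus strand: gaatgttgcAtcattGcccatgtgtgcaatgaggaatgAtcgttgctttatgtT
The next pair of windows, also in exon 2, holds 1 of the 3 coding positions at which Prl2c2 and Prl2c3 differ, in capitals.
Prl2c2, chr13:13002134-13002187, minus strand: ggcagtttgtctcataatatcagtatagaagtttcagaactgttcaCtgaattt
Prl2c3, chr13:12796831-12796884, minus strand: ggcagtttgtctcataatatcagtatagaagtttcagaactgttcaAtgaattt

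The promoters are shown because levels of these genes differed between groups. RefSeq promoter sequences (GRCm38.p6) were at hand for Prl2c3, Prl2c5 and Prl8a9, 3 of the 4 genes, and are printed for the 250 bases before the RefSeq start. Capitals mark matches to an AP-1 motif (TGANTCA) and to a TATA motif (TATAA), searched on both strands.
Prl2c3 promoter, chr13:12800080-12800329, minus strand: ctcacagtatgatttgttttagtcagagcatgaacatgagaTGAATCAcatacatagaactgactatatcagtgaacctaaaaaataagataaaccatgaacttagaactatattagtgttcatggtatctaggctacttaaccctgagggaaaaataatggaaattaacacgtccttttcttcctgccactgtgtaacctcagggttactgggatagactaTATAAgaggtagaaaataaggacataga
Prl2c5 promoter, chr13:13182466-13182715, plus strand: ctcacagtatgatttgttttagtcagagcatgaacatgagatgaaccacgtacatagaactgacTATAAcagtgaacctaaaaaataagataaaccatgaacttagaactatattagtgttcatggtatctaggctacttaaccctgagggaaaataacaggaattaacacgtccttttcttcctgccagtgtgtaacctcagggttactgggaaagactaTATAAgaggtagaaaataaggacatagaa
Prl8a9 promoter, chr13:27564607-27564856, minus strand: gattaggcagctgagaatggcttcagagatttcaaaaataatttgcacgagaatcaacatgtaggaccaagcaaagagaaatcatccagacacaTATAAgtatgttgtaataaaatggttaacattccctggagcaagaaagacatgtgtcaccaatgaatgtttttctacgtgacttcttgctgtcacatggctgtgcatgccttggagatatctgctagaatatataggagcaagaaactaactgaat
The promoters of Prl2c3 and Prl2c5 were identical at 241 of 251 aligned positions (96.0%). The AP-1 match of Prl2c3 lay 209 to 203 bases before the start. Prl2c5 held no match there, and 1 of the 8 substitutions between the promoters, T46C (the base of Prl2c3 first, counted from 1 at the 5′ end of the printed stretch), falls within it. Prl2c3 and Prl2c5 each held a TATA match close to the start, 28 to 24 and 29 to 25 bases before it. Prl8a9 held an AP-1 match, TGACTCA, 4 to 10 bases after the start and a TATA match 156 to 152 bases before it. A STAT motif (TTCNNNGAA) matched Prl2c3 alone, 26 to 34 bases after the start, and an AP-2 motif (GCCNNNGGC) matched none of the 3 within the 300 bases searched. Among 32851 promoters of 300 bases, 7.81% held the AP-1 motif, 24.9% the TATA motif, 8.30% the STAT motif and 16.6% the AP-2 motif.

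Prl2c2 was present in NFs grown alone and was far lower in CD26- NFs from gels with tumor cells. It had 27.4 CPM in CD26- NFs alone (gel 1), and 0.606 and 0.518 CPM in those of gels 4 and 5. It had 33.5 CPM in CD26+ NFs alone, and 11.6 and 15.7 CPM in those of gels 4 and 5. Within a gel the CD26+ NFs were higher each time, and the gap between subsets was wide only where tumor cells were present. The ratio of CD26+ to CD26- NFs was 1.23 in gel 1 (95% interval 1.07 to 1.40), 19.1 in gel 4 (10.1 to 40.5) and 30.3 in gel 5 (15.7 to 67.2). Intervals of ratios are exact conditional binomial (Clopper-Pearson) limits and reflect counting alone, because sequenced copies of a molecule could not be recognised. Co-cultured CD26- NFs stood 45.2-fold and 52.9-fold below CD26- NFs alone, and co-cultured CD26+ NFs 2.90-fold and 2.14-fold below CD26+ NFs alone. As log2(CPM + 0.5), the difference between subsets in co-culture was 3.72 ± 0.39 (SD, n = 2 gels). NFs alone came from 1 gel, so culture with tumor cells and the gel itself cannot be told apart.

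In tumor cells Prl2c2 had 36.4 CPM (13-MCB-17) and 38.2 CPM (10-SJK-221) when grown alone and 4.02 and 22.6 CPM with NFs. Both lines were lower with NFs, by 9.08-fold and 1.69-fold. The lines were level when alone (ratio of 13-MCB-17 to 10-SJK-221 0.953, 0.853 to 1.07) and apart with NFs (0.177, 0.136 to 0.229). In bulk libraries, fewer cells with a transcript and less of it per cell cannot be told apart.

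Prl2c3 was the most abundant member in tumor cells, at 42.8 to 320 CPM per kilobase of transcript. Line 13-MCB-17 had 274 CPM alone and 36.6 CPM with NFs, and line 10-SJK-221 had 101 CPM alone and 93.9 CPM with NFs. The lines differed in size of this drop: 13-MCB-17 cells were 7.49-fold lower (6.90 to 8.14) with NFs and 10-SJK-221 cells 1.08-fold lower (1.01 to 1.16). The order of the lines was the reverse in co-culture, from a ratio of 2.71 alone to 0.390. For every member, each tumor library came from its own gel, so line, culture and gel cannot be told apart. The intervals reflect counting alone, and the difference between lines was not tested. The NF levels of Prl2c3 in gels 1, 4 and 5 were 6.46, 1.51 and 2.24 CPM in CD26- cells, against 12.6, 8.86 and 11.5 CPM in CD26+ cells. CD26+ NFs were above CD26- NFs in every gel, by 1.96-fold, 5.85-fold and 5.14-fold. The difference between subsets in co-culture was 2.17 ± 0.06 (SD, n = 2) as log2(CPM + 0.5).

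Prl2c5 was also highest in tumor cells alone, and in NFs it was the Prl2c gene that was higher, not lower, in co-cultured CD26+ cells than in CD26+ cells alone. Line 13-MCB-17 went from 63.9 CPM alone to 5.49 CPM with NFs, and line 10-SJK-221 from 24.6 to 1.77 CPM. Both lines were lower with NFs to a like degree, 11.7-fold and 13.9-fold, with counting intervals of 9.47 to 14.5 and 9.65 to 20.8. In CD26+ NFs it had 1.61 CPM in gel 1 and 4.95 and 8.41 CPM in gels 4 and 5. Co-cultured CD26+ NFs were thus 3.06-fold and 5.21-fold above CD26+ NFs alone. In CD26- NFs it had 0.497 CPM alone and 0.364 and 0.115 CPM in co-culture, which are 8, 6 and 2 counts, and the intervals of the ratios to gel 1 (0.209 to 2.41 and 0.024 to 1.16) include 1. Within gels, CD26+ NFs exceeded CD26- NFs 3.25-fold, 13.6-fold and 73.1-fold, the last against 2 counts (19.8 to 611). The log2(CPM + 0.5) difference between subsets in co-culture was 3.26 ± 0.85 (SD, n = 2).

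**Figure D1:**
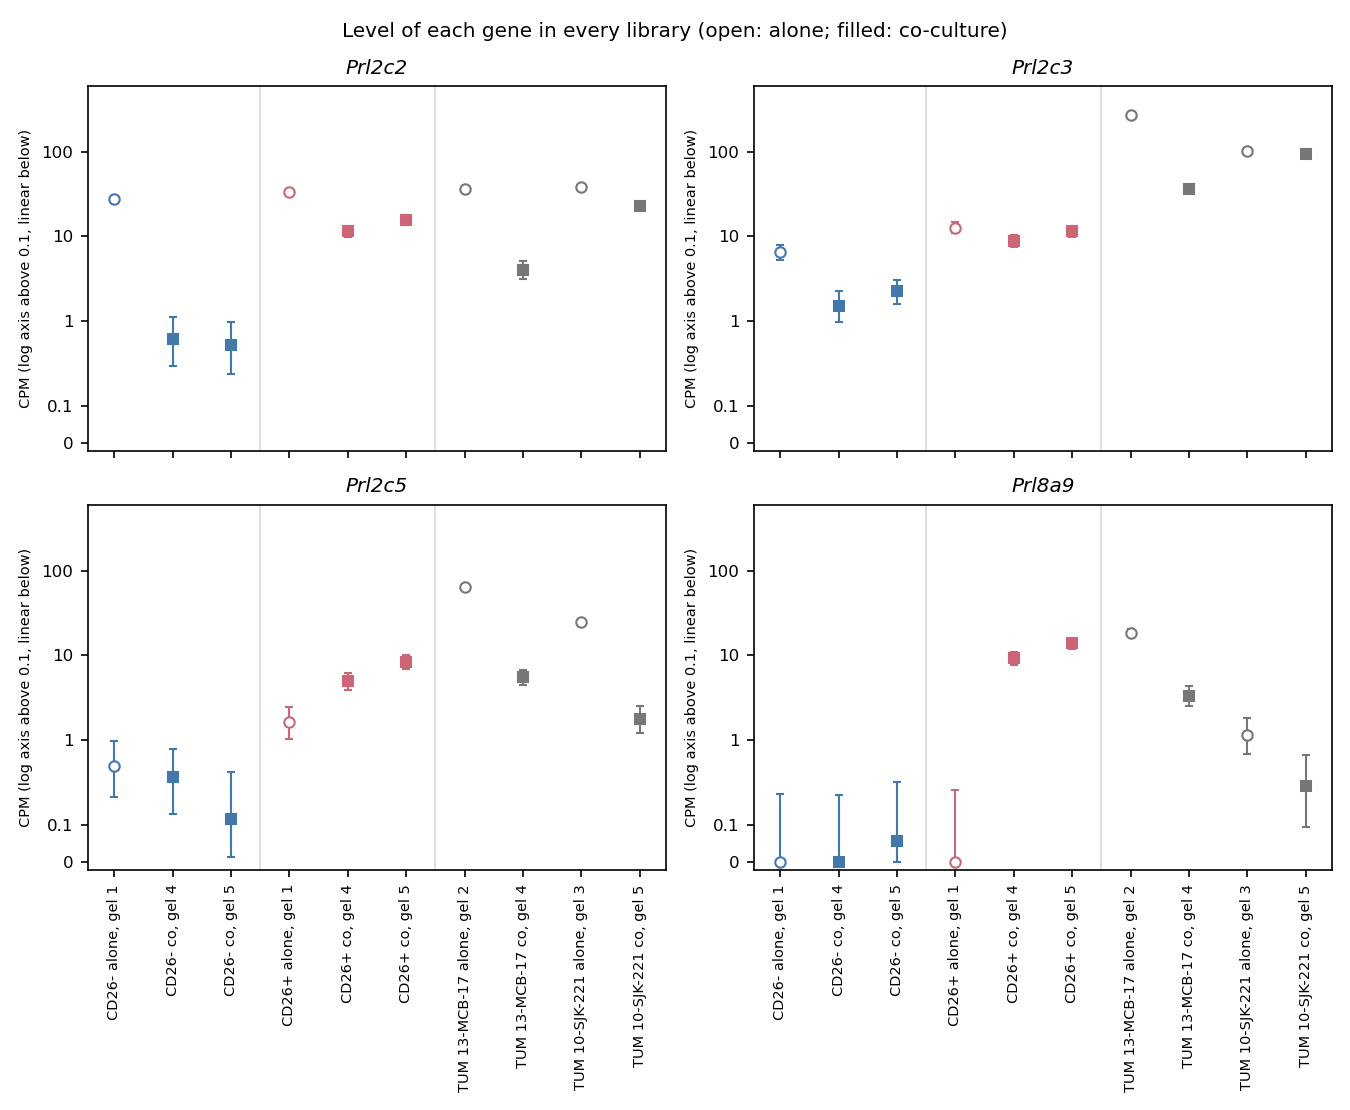
Level of Prl2c2, Prl2c3, Prl2c5 and Prl8a9 in each of the 10 libraries, in CPM on an axis that is logarithmic above 0.1 and linear below; open circles are cells grown alone, filled squares co-cultured cells, and bars the 95% counting interval. Prl8a9 is listed with 0 counts in both NF libraries of gel 1 and reaches 9.25 CPM (gel 4) and 13.9 CPM (gel 5) where CD26+ NFs grew with tumor cells, while for Prl2c2 the CD26- NFs lie at 27.4 CPM in gel 1 and at 0.606 and 0.518 CPM in gels 4 and 5.

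Because reads can move between Prl2c2 and Prl2c3, the 3 Prl2c rows were also summed. For CD26- NFs the sum stood at 34.3 CPM in gel 1, 2.48 CPM in gel 4 and 2.88 CPM in gel 5. For CD26+ NFs it stood at 47.8, 25.4 and 35.6 CPM in the same gels. Tumor line 13-MCB-17 had 375 CPM alone and 46.2 CPM with NFs, and line 10-SJK-221 had 164 and 118 CPM. The sum does not depend on how counted reads were shared among the 3 genes, though it would miss any reads that the counting set aside for matching more than 1 gene. Its order of groups was tumor cells above CD26+ NFs, and CD26+ NFs above CD26- NFs, in each of gels 4 and 5. CD26+ NFs exceeded CD26- NFs of the same gel 1.39-fold (1.24 to 1.56) in gel 1, 10.2-fold (7.39 to 14.5) in gel 4 and 12.4-fold (9.25 to 16.9) in gel 5. Co-cultured CD26+ NFs were lower than CD26+ NFs alone in the sum, at 0.531 and 0.746 of its level, the opposite direction to Prl2c5 by itself.

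The make-up of the Prl2c counts differed between cell types and cultures. Prl2c2 held 79.7% (Wilson interval 76.2% to 82.9%) and 70.2% (66.6% to 73.5%) of them in CD26- and CD26+ NFs alone. In tumor cells it held 8.70% to 23.3%, and Prl2c3 held 61.7% to 79.4%. Co-cultured CD26+ NFs lay between, with 45.6% and 44.0% Prl2c2, and had the highest shares of Prl2c5, 19.5% (15.9% to 23.7%) and 23.6% (20.1% to 27.5%). In co-cultured CD26- NFs, with 41 and 50 Prl2c counts, Prl2c3 led with 61.0% and 78.0%, as in tumor cells. The ratio of Prl2c2 to Prl2c3 counts ranged from 0.110 to 4.24 over the libraries, so the pair did not keep one ratio.

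**Figure D2:**
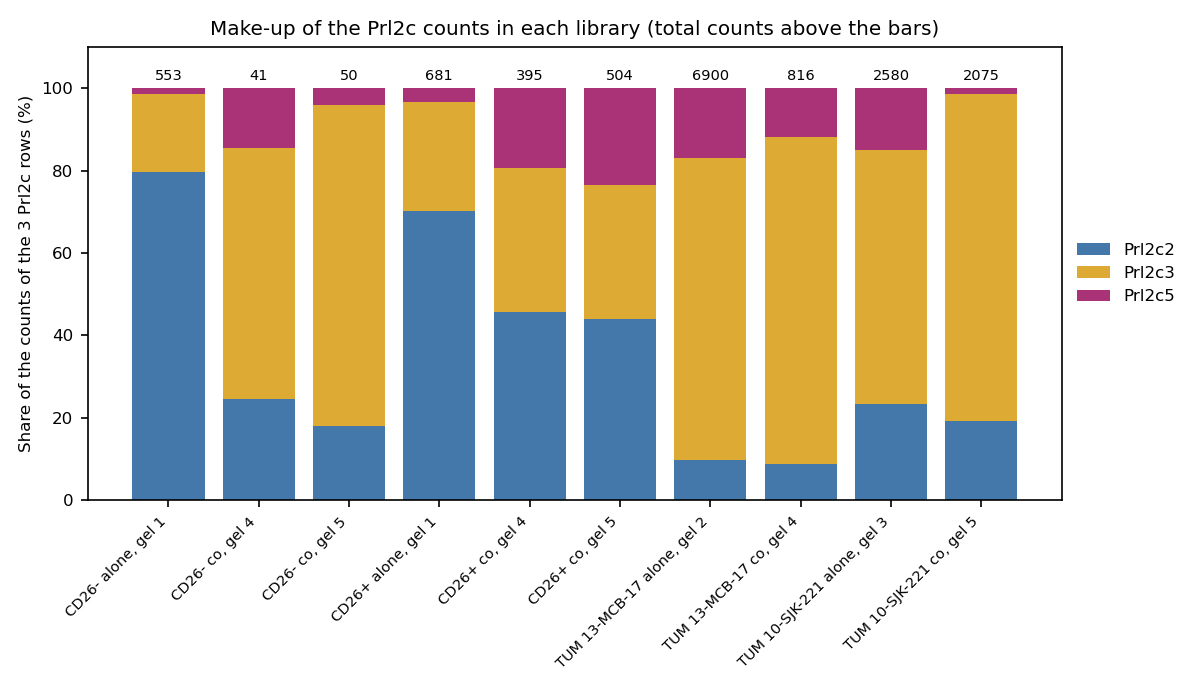
Share of each Prl2c gene in the summed Prl2c counts of each library (percent, stacked bars from 0 to 100), with the number of counts above each bar. Prl2c2 makes up 79.7% and 70.2% in NFs alone and at most 23.3% in tumor cells, and Prl2c5 reaches 19.5% and 23.6% in co-cultured CD26+ NFs.

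Prl8a9 had the narrowest pattern. It had 0 counts in both NF libraries of gel 1, for which the floor is 0.186 and 0.211 CPM. With tumor cells in the gel, CD26- NFs had 0 and 1 counts and CD26+ NFs had 144 and 197 counts, or 9.25 and 13.9 CPM. Among NFs it was above 1 count only in the CD26+ cells of gels 4 and 5. Against 3 counts as the floor of a library, co-cultured CD26+ NFs were at least 43.9-fold and 66.2-fold higher than CD26+ NFs alone, and in gel 4 at least 50.9-fold higher than CD26- NFs. In gel 5 the ratio to CD26- NFs, which had 1 count, was 242, with a counting interval of 42.9 to 9608.

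Tumor cells also had Prl8a9, and the level differed between the lines. It had 18.4 CPM in 13-MCB-17 cells and 1.15 CPM in 10-SJK-221 cells grown alone, and 3.34 and 0.285 CPM in the same lines with NFs. The first line was 16.1-fold higher alone and 11.7-fold higher in co-culture, and both lines were lower with NFs, at 0.181 (0.135 to 0.240) and 0.249 (0.0723 to 0.696) of their level alone. Unlike the Prl2c genes as a sum, Prl8a9 was higher in co-cultured CD26+ NFs than in the tumor cells of the same gel, 2.77-fold (2.03 to 3.82) in gel 4 and 48.8-fold (20.6 to 152) in gel 5. Per kilobase of transcript it stood between Prl2c3 and Prl2c5 in the CD26+ NFs of gel 4 (9.82 CPM per kb) and between Prl2c2 and Prl2c3 in those of gel 5 (14.8 CPM per kb), and was the lowest of the 4 members in each of the other 8 libraries.

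Epithelial markers were found in co-cultured NFs beside the members. All 10 of them were higher in co-cultured NFs than in NFs alone at an adjusted p under 0.05 (edgeR quasi-likelihood test over all genes), where 24.9% of all genes tested were called higher. Of 8 fibroblast markers, 2 were higher and 4 lower, where 21.6% of all genes were called lower. Between subsets Cldn3 was higher in CD26+ NFs (log2 fold change 2.06, adjusted p = 0.0246). Col1a2 and Pdgfrb were lower there (-0.80 and -0.86, adjusted p = 0.0329 and 0.0369). The 6 NF libraries came from 3 gels, and NFs alone from gel 1 only, so culture and gel cannot be told apart, and the test's p-values for co-culture in NFs, which treat the libraries as separate, may be too small. Set against the tumor cells of the same gel, the median epithelial marker stood at 1.94% (gel 4) and 2.09% (gel 5) in CD26- NFs. In CD26+ NFs it stood at 2.88% and 5.03%, with single epithelial markers from 0.827% to 17.7% over these libraries. A member present at the median share of the markers would make up 46.9% and 87.6% of the Prl2c3 level and 12.9% and 91.5% of the Prl2c2 level measured in the CD26- NFs of gels 4 and 5. In CD26+ NFs the same calculation gave 11.9% and 41.0% of Prl2c3, 1.00% and 7.26% of Prl2c2, and 3.20% and 1.06% of Prl2c5, whose shares in CD26- NFs were 29.3% and 32.2% of 6 and 2 counts. For Prl8a9 in CD26+ NFs it gave 1.04% and 0.103%, and even the marker with the highest share would give 0.425 and 0.0505 CPM against 9.25 and 13.9 CPM measured. The Prl2c3 level of CD26+ NFs in gel 5 (11.5 CPM) lay below what that highest share would give (16.6 CPM), and so did Prl2c2 in the CD26- NFs of gel 5 (0.518 against 2.08 CPM). In the CD26- NFs of both gels the same held for Prl2c3 (1.51 against 3.59 CPM and 2.24 against 8.63 CPM) and for Prl2c5 (0.364 against 0.537 CPM and 0.115 against 0.162 CPM). Beyond these values, the part of tumor RNA in the members' levels was not tested. In the other direction, fibroblast markers stood at a median of 0.109% and 0.130% of their NF level in the tumor cells of gels 4 and 5, with single markers from 0% to 8.94% and from 0.0396% to 9.92%. Of 6 fibroblast markers tested in tumor cells, 5 were higher with co-culture, where 10.8% of all genes tested were. DESeq2 did not call Dcn, one of the 5 (adjusted p = 0.451). The comparison of tumor cells by culture rests on 4 libraries with 1 residual degree of freedom, and without tumor line in the model all 22 calls of named genes in it were lost, these 5 included.

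**Figure D3:**
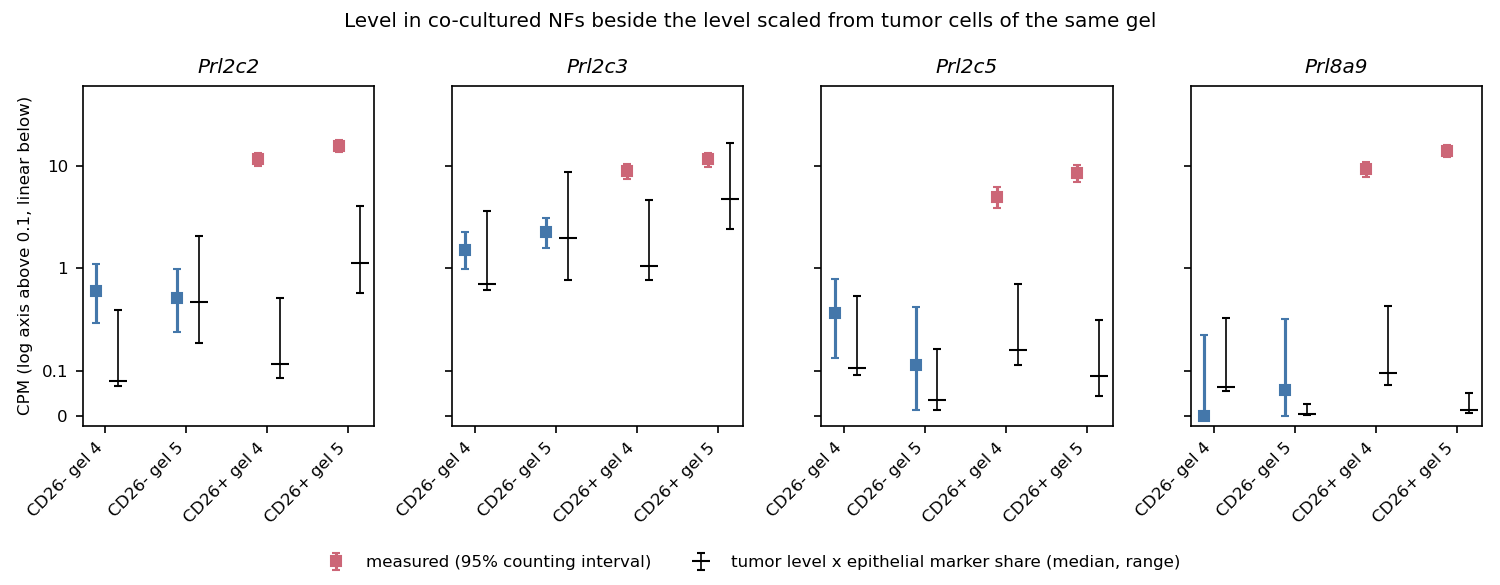
Measured level of each member in co-cultured NFs (squares, CPM with 95% counting interval, axis logarithmic above 0.1 and linear below) beside the level in tumor cells of the same gel times the share of the epithelial markers (black dash, median; bar, lowest to highest marker). Prl8a9 in CD26+ NFs lies above the whole bar in both gels, and Prl2c3 in CD26- NFs lies within it.

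The other 22 rows of the prolactin family were nearly silent. Of these, 7 had 0 counts in every library, Prl itself among them, 8 had at most 3 counts in any library, and 7 exceeded that. The 4 members held 15358 counts over the 10 libraries, 98.9% of those of the family, and the other 22 rows held 164. Prl7d1, a placental gene known for restraining blood vessel growth, was the highest of the others with 19 and 27 counts in tumor cells alone and 3 and 2 in tumor cells with NFs. It was the only other family gene to pass the low-count filter of a comparison, through its counts in tumor cells alone. Because it passed through the group where it was high, its fall with NFs (log2 fold change -3.21, SE 0.62) is given without a p-value. In that comparison of co-cultured tumor cells with tumor cells alone, 11.5% of the genes tested were called lower, with 1 residual degree of freedom. Prl2a1 showed the same layout on 8 and 6 counts alone against 0 and 1. Prl3a1 had its highest counts in co-cultured tumor cells (13 and 7), Prl6a1 was spread over several libraries with at most 8, and Prl8a1, Prl7b1 and Prl8a6 reached 4, 4 and 7 counts. Prl8a6, which lies in the same cluster as Prl8a9, had all of its 9 counts in co-cultured CD26+ NFs (2 and 7).

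The genes around the members did not share their pattern throughout. The 3 Prl2c genes span 401 kb, and of 11 other genes of the table between them, 3 exceeded 3 counts in a library. In tumor cells alone the long noncoding Gm48544 had 33 and 60 counts and the unclassified Gm10811 had 40 and 49, and the pseudogene Gm18259 reached 4. Gm48544 and Gm10811 had at most 3 counts in any NF library, whereas Prl2c2 had 441 and 478 counts in NFs alone. Gpr137b and Gpr137b-ps, the nearest genes beyond the triplet on either side with a mean of at least 1 CPM, were higher in every tumor library than in every NF library. Gpr137b was at 1159 and 555 CPM in tumor cells alone, 421 and 249.9 CPM in tumor cells with NFs and 15.4 to 74.1 CPM in NFs. Gpr137b-ps, the nearer of the pair and by its name a pseudogene, was at 366 and 117 CPM, 140.3 and 69.6 CPM, and 4.42 to 19.5 CPM in the same groups. Of the next genes outward, Ero1lb was also higher in every tumor library than in every NF library, with 37.2 and 19.5 CPM in tumor cells alone, 29.4 and 21.4 CPM in tumor cells with NFs and 3.72 to 7.63 CPM in NFs. Nid1 on the other side, a basement membrane gene, was at 1422 to 2036 CPM in NFs and under 1 CPM in tumor cells. The third genes outward did not part the cell types: Lgals8 was at 55.8 to 91.3 CPM in NFs and 63.7 to 108 CPM in tumor cells, and Lyst at 48.1 to 156 CPM and 47.0 to 109 CPM. In the main cluster around Prl8a9, 1094 kb with 23 family genes, none of the 11 other genes exceeded 3 counts. Of the 3 genes on each side of that cluster, Gpld1 was higher in every NF library (1.70 to 4.84 CPM) than in every tumor library (0 to 0.598 CPM), and Sox4 lower (111 to 192 CPM against 202 to 366 CPM). The groups overlapped for Aldh5a1 (5.09 to 8.42 CPM in NFs, 0.891 to 6.73 CPM in tumor cells), Mrs2 (25.1 to 57.4 and 53.5 to 75.7 CPM), 2610307P16Rik (0.559 to 4.38 and 0.0636 to 0.570 CPM) and Cdkal1 (9.03 to 14.7 and 13.8 to 16.7 CPM).

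Igf2r, which encodes the receptor that proliferins bind, was well expressed everywhere. In CD26- NFs of gels 1, 4 and 5 it was at 245, 637 and 718 CPM, and in CD26+ NFs at 374, 899 and 742 CPM. Line 13-MCB-17 had 278 CPM alone and 419 CPM with NFs, and line 10-SJK-221 had 199 and 291 CPM. Igf2r rose with co-culture in NFs (log2 fold change 1.35, SE 0.17, adjusted p = 0.000106) and in tumor cells (0.54, SE 0.11, adjusted p = 0.00783), the latter only with tumor line in the model. In co-culture it was higher in NFs than in tumor cells (1.28, SE 0.20, adjusted p = 0.000904, edgeR). It did not pass the test between NF subsets. The receptor gene was thus higher in the co-cultures, in which Prl2c2 was lower. Prl2c3 was lower as well, but stood at 0.912 of its level alone in the CD26+ NFs of gel 5 (0.734 to 1.13). In 10-SJK-221 tumor cells it stood at 0.927. Prl2c5 was higher, not lower, in co-cultured CD26+ NFs. A link between Igf2r and the members was not tested.

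Prlr, the prolactin receptor, was the reverse in NFs. It had 38 and 213 counts in CD26- and CD26+ NFs alone (2.36 and 14.9 CPM) and 0 to 5 counts in co-cultured NFs, and tumor libraries had 0 to 6. It fell with co-culture in NFs (log2 fold change -6.07, SE 0.52, adjusted p = 8.55e-06) and exceeded in CD26+ NFs its level in CD26- NFs (2.49, SE 0.56, adjusted p = 0.0273), the latter resting on gel 1, where nearly all its counts were. Without gel 5, in a fit with fewer samples, the subset call was lost (log2 fold change 2.35, adjusted p = 0.111). So where Prl8a9 was found in NFs, Prlr was at 1 and 5 counts.

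Of the 11 genes for receptors and signal carriers, 3 rose and 7 fell in co-cultured NFs, where 46.5% of all genes tested were called, 24.9% higher and 21.6% lower. The list had a median log2 fold change of -0.70 against 0.03 over all genes tested. Besides Igf2r, M6pr, the other mannose 6-phosphate receptor, and Stat5a rose (0.71, SE 0.14, adjusted p = 0.00231; 0.63, SE 0.16, adjusted p = 0.00769). The growth hormone receptor Ghr fell (-1.63, SE 0.13, adjusted p = 4.3e-06), as did Jak2 (-0.72, SE 0.18, adjusted p = 0.0088) and the feedback inhibitors Socs1, Socs2, Socs3 and Cish (-1.24 to -0.65, adjusted p 4.6e-05 to 0.0219). Socs2 lost its call without gel 4 (adjusted p = 0.0722) and without gel 5 (0.0635). In tumor cells with NFs against tumor cells alone, where 22.3% of genes were called (10.8% higher, 11.5% lower), 4 of 10 genes tested rose (Igf2r, Jak2, Cish and Socs2) and none fell, all calls that were lost without tumor line in the model. DESeq2 did not call Socs2 there (adjusted p = 0.20). Between NF subsets Prlr was the only one of the 11 that passed, against 7.23% of all genes (3.63% higher, 3.60% lower). In co-culture 6 of 10 were higher in NFs than in tumor cells (Stat5a, Socs2, Ghr, Igf2r, Socs1 and M6pr) and 2 were lower (Jak2 and Socs3), where 57.5% of genes were called (31.0% higher in NFs, 26.5% lower). M6pr and Socs1 lost this call when 1 of several libraries was left out (adjusted p up to 0.178 and 0.189, both without the tumor cells of gel 4).

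**Figure D4:**
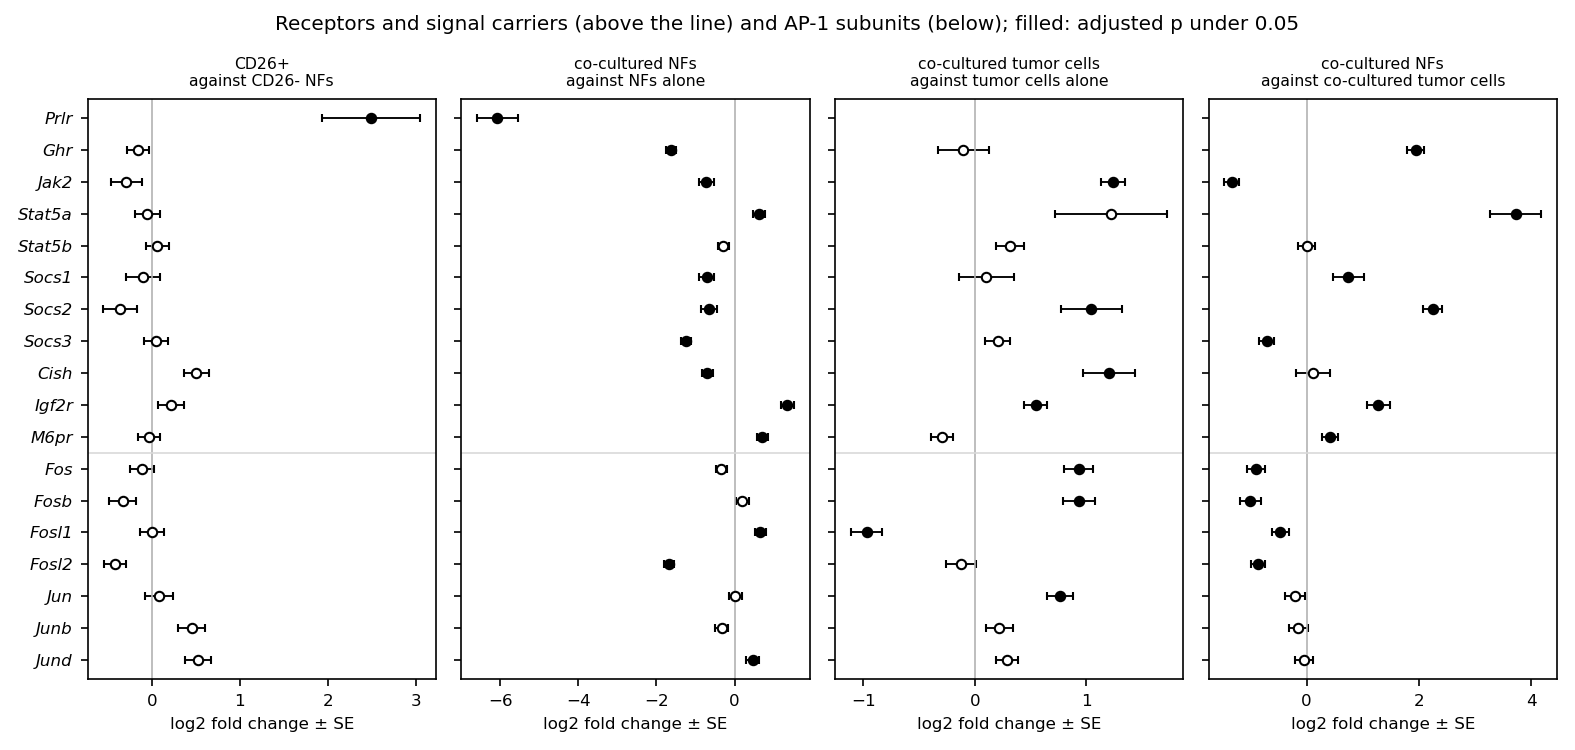
Log2 fold change with its SE (horizontal axes, which differ in range between panels) for receptors and signal carriers and for AP-1 subunits in the 4 comparisons; filled points have an adjusted p under 0.05 in the edgeR quasi-likelihood test. Prlr lies at -6.07 and Igf2r at 1.35 in co-cultured NFs against NFs alone.

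Genes that prolactin is known to switch on in the mammary epithelium were mostly silent. Of 7 such genes, Elf5 and Lalba had 0 counts, and Csn1s1, Csn2 and Wap had at most 1. Csn3, a casein gene, reached 37 counts in the tumor cells of gel 5. Tnfsf11 (RANKL) was the only one with enough counts for a test in NFs, at 74.0 and 48.6 CPM in gel 1 and from 14.3 to 33.5 CPM in gels 4 and 5, and it fell with co-culture (-1.51, SE 0.28, adjusted p = 0.00146). In co-culture it was higher in NFs than in tumor cells, which had 0 counts in every library.

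Trophoblast genes were checked because the members are placental. Of 20 such genes, 9 had 0 counts in every library, among them Gcm1, Hand1, Synb, Ctsq and Cdx2, which define trophoblast lineages, and 14 in all had at most 3. Tfap2c, a transcription factor of trophoblast stem cells that is also active in breast epithelium, followed the layout of Prl8a9 in NFs. Co-cultured CD26+ NFs had 67 and 69 counts (4.30 and 4.88 CPM), co-cultured CD26- NFs 4 and 6, NFs alone 0 and 2, and no tumor library more than 1. It passed the test as higher in CD26+ NFs (log2 fold change 3.76, SE 0.51, adjusted p = 0.00379), in co-cultured NFs against NFs alone (5.01, SE 0.74, adjusted p = 0.000336) and in co-cultured NFs against tumor cells (5.21, SE 0.77, adjusted p = 0.000601). The subset call was lost without gel 4 (adjusted p = 0.0568) and without gel 5 (0.14). Unlike Prl8a9, it was not found in tumor cells.

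The other trophoblast genes with counts showed several patterns. Syna, a syncytin, rose with co-culture in NFs (4.20, SE 0.91, adjusted p = 0.00364), with 14 and 14 counts in CD26- and 29 and 31 in CD26+ NFs. Peg10, an imprinted gene that is also active in other tissues, fell with co-culture (-1.64, SE 0.13, adjusted p = 4.46e-06) and was the higher of the subsets in CD26+ cells (0.66, SE 0.13, adjusted p = 0.0151), a call lost without gel 5 (adjusted p = 0.211). In co-culture Plac1 and Eomes were lower in NFs than in tumor cells (-5.22, SE 0.59, adjusted p = 0.000125 and -4.14, SE 0.28, adjusted p = 6.79e-06). Of the 5 tested there, the other 3 were higher in NFs: Tfap2c, Peg10 (9.70, SE 0.40, adjusted p = 5.38e-07) and Syna (1.46, SE 0.46, adjusted p = 0.026). Syna lost this call when single libraries were left out. Of all genes tested, 31.0% were called higher in NFs there and 26.5% lower. Of the 5 genes of this list that could be tested in NFs, 2 were higher and none lower in CD26+ NFs, where 3.63% of genes were called higher. With co-culture 2 rose and 1 fell, where 24.9% of all genes tested rose and 21.6% fell.

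AP-1 is a dimer of Fos and Jun proteins that is known to act at the proliferin promoter. Its 7 subunit genes were expressed in every library, with summed levels of 3328 to 4434 CPM in NFs, 4060 and 4800 CPM in tumor gels 2 and 3, and 6114 and 7851 CPM in tumor cells with NFs. For Fosl1, tumor line 13-MCB-17 had 485 CPM alone and 212 CPM with NFs, line 10-SJK-221 had 417 and 257 CPM, and NFs had 96.4 and 94.7 CPM in gel 1 and from 112 to 162 CPM in gels 4 and 5. In tumor cells it fell with co-culture (-0.97, SE 0.14, adjusted p = 0.00218), while Fos, Fosb and Jun rose (0.93, 0.94 and 0.76, adjusted p = 0.00161, 0.00257 and 0.00268); these 4 calls too were lost without tumor line in the model. Fosl1, Prl2c2, Prl2c5 and Prl8a9 were lower in tumor cells with NFs in both lines. Prl2c3 was far lower in line 13-MCB-17 only, and stood at 0.927 of its level alone in line 10-SJK-221. In that comparison 11.5% of all genes tested were called lower, and a link of Fosl1 to the members was not tested. In co-cultured NFs Fosl1 and Jund rose (0.66, SE 0.15, adjusted p = 0.00517; 0.46, SE 0.16, adjusted p = 0.0358) and Fosl2 fell (-1.68, SE 0.12, adjusted p = 3.12e-06), and Jund lost its call without gel 5 (adjusted p = 0.146). In tumor cells 22.3% of all genes tested were called with co-culture, and in NFs 46.5%. None of the 7 passed the test between NF subsets, where 7.23% of all genes did. In co-culture Fos, Fosb, Fosl1 and Fosl2 were lower in NFs than in tumor cells, as were 26.5% of all genes tested, and Fosl1 lost this call in 4 of the 6 fits that left out a library (adjusted p 0.0567 to 0.204).

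Other cell types were looked for as well. Of 4 endothelial markers tested, Pecam1 and Cdh5 rose and Tek fell in co-cultured NFs, where 46.5% of all genes tested were called. Kdr was above its CD26- level in CD26+ NFs (2.10, SE 0.40, adjusted p = 0.0152), a call lost without gel 4 and without gel 5 (adjusted p = 0.0837 and 0.0553). In gels 4 and 5 the summed endothelial markers ranged from 8.06 to 10.1 CPM in CD26- NFs and from 14.8 to 24.4 CPM in CD26+ NFs, against 4.35 and 9.76 CPM in gel 1 and 2.34 to 4.07 CPM in tumor libraries. Among NF libraries they were thus highest in those with the most Prl8a9, whereas tumor gel 2, with the highest Prl8a9 level of all libraries (18.4 CPM), was among the low ones. Per the methods, cells with CD31, the product of Pecam1, were left out when NFs were first sorted, before culture. The part of endothelial RNA in the Prl8a9 level was not tested. Ptprc, which marks all white blood cells, had at most 2 counts in any library, and Lyz2 fell in co-cultured NFs against NFs alone (-3.47, SE 0.51, adjusted p = 0.000337). Cd68 and Csf1r, which were also present in tumor cells grown alone, rose in co-cultured NFs, and the 6 immune markers summed to 31.6 to 63.6 CPM there, 11.5 and 14.1 CPM in NFs alone and 47.9 to 301 CPM in tumor cells.

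Among 13486 genes with a mean of at least 1 CPM, those most like the Prl2c sum over the 10 libraries by Pearson correlation of log2(CPM + 1) were Pcdh7 (r = 0.955), Dnajc8 (0.952), Rpl7a-ps5 (0.948), Mttp (0.947) and Supv3l1 (0.946). Those most like Prl8a9 were Mob2 (0.920), Lilrb4a (0.912), Clec4d (0.910), Vapa (0.906) and Fendrr (0.905). Clec4d, a lectin receptor of myeloid cells, was at 5.85 and 6.15 CPM where CD26+ NFs grew with tumor cells and at 7.88 and 3.12 CPM in gels 2 and 3, against at most 0.727 CPM elsewhere. The 10 libraries share gels and fall into few groups, so these values describe the layout of levels only, and ranking by Spearman correlation of CPM gave none of the same 5 genes for either target.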

How the data were processed

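Per the labels, polyA RNA of sorted cells was made into stranded TruSeq mRNA libraries and sequenced in pairs of 54 cycles on a NovaSeq, with a HiSeq also named. The deposited table holds raw read counts per Ensembl gene for 10 libraries. The submitters' processing notes name HISAT2 2.2.1 and GRCm38. How reads were counted, whether strand was used and what became of reads with several matches are not given in the sources used here. One row had no gene ID and 0 counts. CPM is the count divided by the library total, times 1000000.

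The members and the gene lists were chosen with earlier results of these data known, so members carry no test. All 4 members passed the low-count filter of each fit. Other genes were tested with edgeR 4.0.16 (R 4.3.3, TMM, filterByExpr, quasi-likelihood F test, Benjamini-Hochberg over all genes tested, threshold 0.05), and all adjusted p-values in the text come from these fits unless DESeq2 1.42.0 is named. CD26+ and CD26- NFs were compared over 6 libraries with culture as a term, co-cultured NFs and NFs alone over the same libraries with subset as a term, tumor cells over 4 libraries with line as a term, and NFs and tumor cells of gels 4 and 5 over 6 libraries. Alternatives were RLE scaling, other filters, DESeq2, a criterion on fold, a gel block, leaving out gels or libraries, another pseudocount and the Prl2c rows summed. The fits were tested on simulated data. Named genes were the members, other family rows above 3 counts, and list genes past the threshold or central to the pathway, with the 5 most alike genes and the 3 nearest genes of mean CPM of at least 1 on each side. That neighbours were taken apart for the Prl2c triplet and the main cluster was settled after the values were seen, as was the naming of genes inside the triplet and of Dpp4.

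Libraries share a gel by their labels, which pairs them. Differences between gels 4 and 5 correlated across 13490 genes with r = 0.264 for CD26- and CD26+ NFs, 0.190 for CD26- NFs and tumor cells, and 0.0993 for CD26+ NFs and tumor cells. Shares carry Wilson intervals and levels exact binomial intervals, all at 95%. Transcripts and windows came from GENCODE M21, which follows the C57BL/6J strain, whereas the mice were FVB/n. A further floxed gene of the tumor cells' genotype is not reported here. p-values measure only the spread between these libraries.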

Additional observations from a re-analysis of the deposited data

Results flagged for a closer look

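The genes looked at here were the members, Prlr, Igf2r, Fosl1 and the list genes called in a comparison. In 3 of these genes the values of CD26- and CD26+ NFs differed in opposite directions between gel 1 (alone) and gels 4 and 5 (with tumor cells). Genes outside this set, such as Nid1 and Mob2, showed the same layout, and its share over all genes was not counted. The difference was not tested, and 1 gel of NFs alone serves both subsets. Prl2c5 went from 0.497 CPM to 0.364 and 0.115 CPM in CD26- NFs and from 1.61 CPM to 4.95 and 8.41 CPM in CD26+ NFs; the CD26- values are 8, 6 and 2 counts, and the intervals of their ratios to gel 1 include 1. Eomes, a T-box factor of trophoblast and lymphoid cells, went from 0.994 CPM to 0.303 and 0.518 CPM in CD26- NFs and from 1.19 CPM to 1.93 and 2.12 CPM in CD26+ NFs. Tumor cells of gels 4 and 5 held 15.1 and 22.6 CPM of Eomes, and the median epithelial marker in CD26+ NFs stood at 2.88% and 5.03% of its tumor level. The part of tumor RNA in these Eomes values was not tested. Jun, the AP-1 subunit, went the other way, from 514 CPM to 575 and 609 CPM in CD26- NFs and from 754 CPM to 567 and 697.0 CPM in CD26+ NFs. Over both subsets, neither Eomes nor Jun passed the edgeR test for co-culture in NFs (adjusted p = 0.865 and 0.924).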

How the results depend on the processing

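Counting Prl2c2, Prl2c3 and Prl2c5 as one gene moved several of the members' log2 ratios. For CD26+ over CD26- NFs in co-culture it gave 3.27, against 3.72 for Prl2c2 and 2.17 for Prl2c3. For co-culture over alone it gave -3.46 in CD26- NFs (Prl2c2 -4.72, Prl2c3 -1.57, Prl2c5 -0.45), -0.66 in CD26+ NFs, which turned the direction of Prl2c5 (1.72), and -1.74 in tumor cells against -3.45 for Prl2c5. A pseudocount of 0.1 CPM in place of 0.5 gave 4.36, 2.39 and 4.38 for Prl2c2, Prl2c3 and Prl2c5 between subsets, -5.38, -0.92 and -3.63 for Prl2c2, Prl2c5 and the sum in CD26- NFs, and -3.62 for Prl2c5 in tumor cells. TMM scaling moved Prl2c3 between subsets to 2.04. No direction of a member turned when a gel was left out, but most tumor values depended on the line. Without line 13-MCB-17 (gel 4) Prl2c2 went from -1.89 to -0.74, Prl2c3 from -1.50 to -0.11, the sum from -1.74 to -0.47 and Prl8a9 from -1.68 to -1.07, and without line 10-SJK-221 (gel 5) they stood at -3.03, -2.89, -3.01 and -2.30; Prl2c5 was at -3.47 and -3.43. Leaving out a gel gave, between subsets, 3.45 to 3.99 for Prl2c2, 2.13 to 2.22 for Prl2c3, 2.66 to 3.86 for Prl2c5 and 3.12 to 3.42 for the sum. For the members, leaving out gel 4 or gel 5 gives the value of the other gel. These values thus show the spread of the gels and are no separate check.

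Requiring an absolute log2 fold change above 2 left 187, 2325, 418 and 3627 genes called in the comparisons of subsets, of NFs by culture, of tumor cells by culture and of NFs with tumor cells. Of these, 173, 1513, 201 and 2579 were called higher, against 589 of 1173, 4039 of 7551, 1419 of 2942 and 4687 of 8687 without the criterion. DESeq2 called 1574 genes for tumor cells by culture against 2942 by edgeR. Without tumor line in the model edgeR called 0, with 2207 at an unadjusted p under 0.05, and all 22 named calls were lost. Leaving out a gel gave 124 (without gel 5) to 1203 genes (without gel 4) between subsets, and the share called higher went from 589 of 1173 to 84 of 124 and 457 of 1203. All 7 subset calls of named genes and markers (Prlr, Tfap2c, Peg10, Kdr, Cldn3, Col1a2 and Pdgfrb) were lost without gel 5. The gel as a replicate block (paired libraries) gave 1648 genes between subsets and 8985 between NFs and tumor cells. It changed none of the 48 results of named genes and markers, which include Igf2r and Fosl1 between subsets, where neither was called. In the comparison of tumor cells by culture no library could be left out, with no residual degrees of freedom, nor could gel 1 for NFs by culture. DESeq2 lost the tumor calls of Eomes (adjusted p = 0.30) and Socs2.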
